A study of Mus musculus with 21 samples.

Results

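Macrophages from mice labelled as lacking lumican were compared with wild-type macrophages after lipopolysaccharide (LPS), the bacterial cell wall component that signals through the receptor TLR4. The comparison uses 4 of the 21 libraries of the series, and 7 of the 21 received LPS. The members were chosen by genotype, stimulus and protein label, and they form 2 pairs. In the first pair, cells labelled Lum-/- and wild-type cells received 100 ng/mL LPS for 6 h with no protein. In the second pair, both received 10 µg/mL recombinant lumican for 1 h and then LPS at the same dose and time. All cells were selected for CD11b, a surface protein of myeloid cells, after being flushed from the unelicited peritoneal cavity of C57BL/6 mice (n = 10 in the labels). They were plated overnight and kept in serum-free medium during treatment. There is 1 library for each mix of label, protein and ligand, and the labels do not say which animals fed which well. Genotype and cell preparation therefore cannot be told apart. The labels do not describe how the Lum allele was made.

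Lumican is a small leucine-rich proteoglycan of the extracellular matrix. It binds collagen, and it also binds the LPS co-receptor CD14 and takes part in the response of macrophages to LPS through TLR4. TLR4 with its partner MD-2 starts a MyD88-dependent branch, which drives NF-kB and inflammatory cytokines, and a TRIF-dependent branch, which drives interferon genes. The comparison asks how RNA levels under LPS differ in cells labelled as lacking the protein, with and without added lumican. No unstimulated library is in the fit. A difference already present before LPS therefore cannot be told apart from a changed response to LPS.

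Levels are TPM, which give a transcript's length-corrected share of the library, summed per gene. Differences are on the log2(TPM + 1) scale, labelled Lum-/- minus wild type, as the mean of the 2 pairs. They are given with a standard error (SE) from a limma fit that also holds the 4 matching libraries given CpG DNA, and on this scale the changes of low genes are understated. A gene is called where its Benjamini-Hochberg adjusted p in limma is under 0.05. The p-values rest on how far the pair without protein and the pair with lumican disagreed within each stimulus. Each gene's spread is also drawn toward a trend over all genes. That trend is weighted as 6.03 degrees of freedom beside the gene's own 2. The p-values do not measure a spread between replicate wells or animals. An action of lumican that differs between the genotype labels would count as spread. The 4 libraries held 16409 to 16927 genes above 0 TPM and 10462 to 10841 genes at 1 TPM or more. The library of Lum-labelled cells given lumican and LPS has a 260/230 ratio of 0.2 in the labels, against 3.36 to 4.91 in the other 3. Among the 4 CpG libraries of the fit, that of Lum-labelled cells without protein has a ratio of 0.13, against 1.81 to 3.23 in the others. The part of these ratios in the results was not tested.

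Lum itself went against the genotype label. Lum (chromosome 10, 97565128 to 97572703, GRCm38) was at 14.1 TPM in the library labelled Lum-/- with LPS and at 12.0 TPM with lumican and LPS. In wild type it was at 1.40 TPM with LPS and 1.24 TPM with lumican and LPS. Both libraries labelled Lum-/- were thus above both wild-type libraries, by 2.60 ± 0.19 (limma adjusted p = 0.000418). The other wild-type library given LPS, with biglycan, held 0.718 TPM, and the 2 libraries labelled Bgn-/- held 0.105 and 0.134 TPM. The table holds 1 Lum transcript of 2448 bases, so its TPM does not tell which exons gave reads. Every direction below is that of the libraries as labelled. Bgn, the gene of biglycan, a related proteoglycan, was below 1 TPM in all 4 libraries, at 0.0322 and 0 TPM in the Lum label and 0.330 and 0.459 TPM in wild type. In the libraries labelled Bgn-/- it was at 0.758 and 1.18 TPM, the highest of the 7 libraries given LPS. Both targeted genes therefore went against the knockout labels, in libraries used below as groups or for comparison, and whether labels were exchanged was not tested.

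Of 10689 genes tested, limma called 712 (6.66%), of which 219 were higher (2.05%) and 493 lower (4.61%) in the libraries labelled Lum-/-. Most differences were small, with a median size of 0.61 among called genes, and 96 called genes differed by at least 1 (38 higher and 58 lower). The median of all tested genes was -0.10. After median-of-ratios scaling, which brought that median to 0.01, 341 genes were called higher (3.19%) and 243 lower (2.27%). Of these, 215 higher and 243 lower genes were called in both analyses. All 712 called genes had the same sign in both pairs, which a call on the mean of the pairs nearly requires. Across all tested genes, the differences of the 2 pairs had a Pearson correlation of 0.324. Of the called genes, 669 did not overlap between the groups, against 42% of all genes tested. The third wild-type library given LPS, with biglycan, took no part in the fit. It lay beyond both Lum-label libraries on the wild-type side for 695 of the 712 called genes (97.6%), which were chosen for their wild-type difference, against 64.4% of all genes tested. Leaving out any 1 of the 8 libraries of the fit lowered the number of calls to between 102 (without the wild-type library given LPS alone) and 252, and a fit of the 4 LPS libraries alone gave 194. Without an LPS library, 1 pair remains and the spread comes from the CpG libraries. Without a CpG library, the LPS difference stays as it is and only its spread changes. The 8 fits are therefore not 8 separate checks of the LPS difference.

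**Figure D1:**
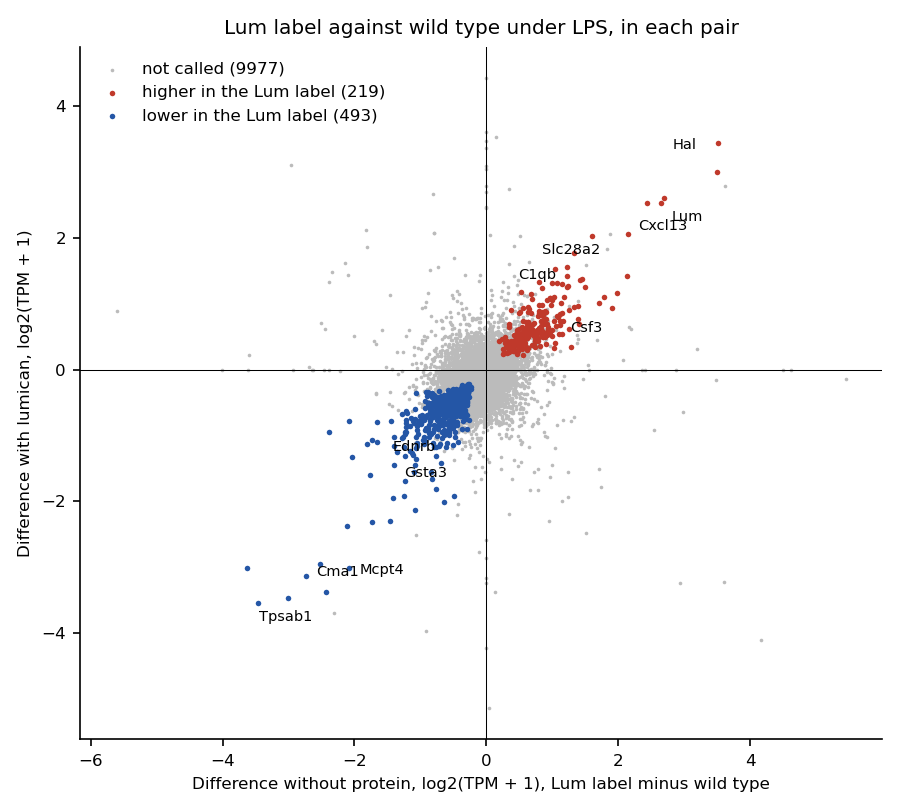
Difference between the libraries labelled Lum-/- and wild type under LPS for each of 10689 genes, on the log2(TPM + 1) scale, without protein (x axis) and with lumican (y axis). Red and blue points are the 219 genes called higher and the 493 called lower, all of which lie in the quadrants where both pairs share a sign.

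Hal, which codes for the histidine-degrading enzyme histidine ammonia-lyase, had the largest difference among genes eligible to be named. Hal (chromosome 10, 93488768 to 93519304) was at 88.2 and 92.3 TPM in the Lum label, without and with lumican, against 6.80 and 7.59 TPM in wild type. The difference was 3.48 ± 0.11 (limma adjusted p = 9e-06), or 12.6-fold in mean TPM. Cxcl13, a chemokine gene whose product attracts B cells, was at 335 and 162 TPM against 74.8 and 38.0 TPM in wild type. Its difference was 2.11 ± 0.08 (limma adjusted p = 2e-05). In each genotype the library given lumican held the lower Cxcl13 level, and the groups did not overlap. Slc28a2, a nucleoside transporter gene, was at 403 and 202 TPM against 172 and 67.6 TPM, a difference of 1.40 ± 0.11. Arg1, the arginase of alternatively activated macrophages, was at 28.4 and 7.33 TPM against 6.82 and 3.34 TPM (1.43 ± 0.21). Limited to called genes whose groups did not overlap and whose higher group reached 10 TPM, the 15 with the largest rise also held Il1f6 (1.29), a gene of the interleukin-1 family, and the cytokine gene Il19 (1.19). They further held Saa1 (1.09), Timp1 (1.05), Chil3 (1.04), Frmd4b (1.03) and the metallothionein gene Mt2 (1.24). Of these, Hal, Lum, Cxcl13, Slc28a2, Mt2 and the 3 C1q genes described below were called in each of the 8 fits that left out 1 library. Arg1, Il1f6, Il19, Saa1, Timp1, Chil3 and Frmd4b were not called in at least 1 of those fits.

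Hal and Lum lie on the same chromosome, and both were higher. Within 5 Mb of Lum, 34 genes were tested, and 2 were called higher (Lum and Hal) and 5 lower, 20.6% in all against 6.66% of all genes. After scaling, 3 were called higher and 3 lower. Hal starts 4.08 Mb from the start of Lum. Dcn, the gene of decorin and the nearest tested neighbour, was at 3.89 and 3.14 TPM in the Lum label against 6.45 and 7.15 TPM in wild type (-0.79 ± 0.19, limma adjusted p = 0.046). The Dcn call was lost after scaling and in each fit that left out 1 library. The other genes called lower, named after their values were seen, were Ndufa12 (-1.05), Lta4h (-0.61), Metap2 (-0.54) and Mrpl42 (-0.51). Within 2 Mb, Btg1 (-0.19), Eea1 (0.10), Poc1b (-0.43), Galnt4 (-0.07) and Dusp6 (0.42) were not called, but Dusp6, a phosphatase gene whose groups did not overlap, was called higher after scaling (0.53).

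The 3 genes of complement C1q, the recognition subunit of the classical pathway that macrophages make, were all higher. C1qa (chromosome 4, 136895917 to 136898803) was at 230 and 170 TPM against 104 and 68.1 TPM in wild type. Its difference was 1.23 ± 0.08 (limma adjusted p = 0.000252). C1qb was at 310 and 229 TPM against 131 and 94.0 TPM (1.26 ± 0.07). C1qc was at 151 and 124 TPM against 66.5 and 56.8 TPM (1.14 ± 0.08). For each of the 3 genes, both Lum-label libraries were above the other 5 libraries given LPS. Of 19 tested complement and acute-phase genes, 7 were called higher (36.8%, against 2.05% of all genes) and 2 lower, with a median of 0.26 against -0.10 for all genes. The others higher were C5ar1 (0.95), the receptor for complement fragment C5a, Cfp (0.39), the gene of properdin, Saa1, and Lcn2 (0.78), which codes for an iron-binding protein that limits bacteria. Those lower were the acute-phase gene Orm1 and Pf4. Orm1 was at 13.6 and 14.1 TPM against 33.3 and 36.5 TPM (-1.27 ± 0.09, limma adjusted p = 0.000418). Saa3, the most abundant gene of this list, was at 125656 and 119276 TPM against 103743 and 96455 TPM, and its difference of 0.29 ± 0.08 did not pass (limma adjusted p = 0.0694). In fits that left out 1 library, 4 to 6 genes of the list were called higher and 1 or 2 lower.

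**Figure D2:**
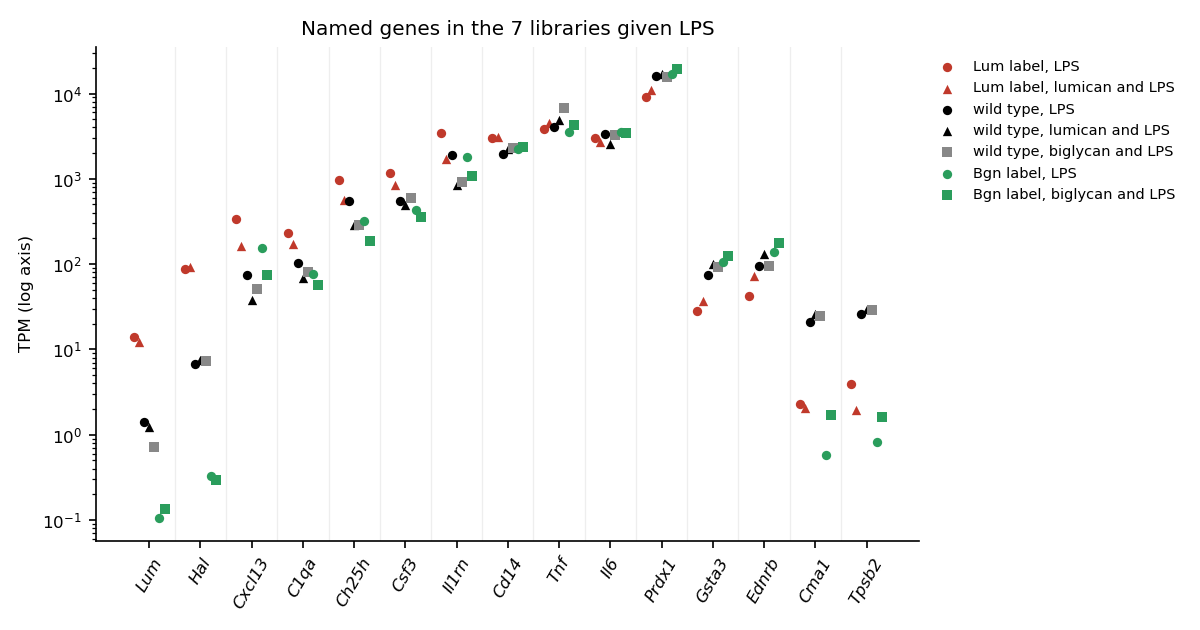
TPM on a log axis of 15 named genes in each of the 7 libraries given LPS, with colour for the genotype label and shape for the added protein. Lum and Hal in the libraries labelled Lum-/- (red) stand above all 5 others, whereas Tnf and Il6 overlap between the labels.

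Most genes of the LPS receptor complex did not pass the test, and the co-receptor gene Cd14 was higher. Tlr4 was at 48.5 and 56.7 TPM in the Lum label and at 50.8 and 55.5 TPM in wild type (-0.02 ± 0.09, limma adjusted p = 0.935). Cd14, the LPS co-receptor to which lumican binds, was at 2990 and 3118 TPM against 1951 and 2226 TPM. It was called higher, by 0.55 ± 0.06 (limma adjusted p = 0.00347), and both Lum-label libraries were above the other 5 libraries given LPS. Ly96, which codes for MD-2, was at 46.6 and 45.4 TPM against 55.6 and 61.4 TPM, and this difference of -0.34 ± 0.09 did not pass (limma adjusted p = 0.0677). Myd88 (0.10) and Ticam1 (-0.09), the gene of TRIF, were not called. Of 23 tested genes of the TLR4 complex and its adaptors, 2 were called higher (8.7%, against 2.05% of all genes). They were Cd14 and the kinase gene Irak2 (0.36). A further 1 was called lower (4.35%, against 4.61%). That one was Cd180 (-0.73), a TLR4-like receptor gene, at 19.1 and 14.4 TPM against 35.4 and 22.3 TPM. The call of Cd14 was lost in 4 of the 8 fits that left out 1 library, and 0 or 1 genes of this list were then called in each direction. Of 13 other Toll-like receptor genes, Tlr8 (0.68) was called higher and Tlr1 (-0.57) lower, 7.69% each way against 2.05% and 4.61% of all genes. Neither call held in any of those fits.

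Tnf was at 3880 and 4495 TPM in the Lum label against 4103 and 4890 TPM in wild type (-0.10 ± 0.06, limma adjusted p = 0.343). Il6 was at 2981 and 2713 TPM against 3334 and 2542 TPM (-0.03 ± 0.11, limma adjusted p = 0.884). For both genes the groups overlapped. Il1b (0.12), Il10 (0.35), Il12b (0.21), Ifnb1 (-0.14) and Nos2 (0.29), the inducible nitric oxide synthase gene, were not called either. Cxcl10 was at 3879 and 2292 TPM against 3710 and 1318 TPM (0.43 ± 0.17, limma adjusted p = 0.186). These intervals do not show that the levels were equal.

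Growth factor genes were among the cytokine genes called higher. Csf3, the granulocyte colony-stimulating factor gene, was at 1156 and 848 TPM against 544 and 487 TPM (0.94 ± 0.15, limma adjusted p = 0.0114). Csf2, its counterpart for granulocytes and macrophages, was at 310 and 264 TPM against 157 and 134 TPM (0.98 ± 0.15, limma adjusted p = 0.0107). In both genes the Lum-label libraries were above the other 5 libraries given LPS. The cytokine gene Lif was at 85.2 and 66.2 TPM against 38.7 and 39.0 TPM (0.93 ± 0.14). Il1rn, which codes for the natural antagonist of interleukin-1, was at 3420 and 1685 TPM against 1906 and 851 TPM (0.91 ± 0.08), so that the groups overlapped although each pair differed. Of 28 tested inflammatory cytokine genes, 9 were called higher (32.1%, against 2.05% of all genes) and 1 lower (Csf1, -0.66), with a median of 0.16 against -0.10 for all genes. The others higher were Edn1 (0.88), Il23a (0.82), Tnfsf9 (0.73), Osm (0.50) and the prostaglandin synthase gene Ptgs2 (0.34). In fits that left out 1 library, 1 to 4 were called higher and 0 lower, and without the wild-type or the Lum-label library given LPS alone it was 1. The Csf1 call was also lost after scaling.

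Of 23 tested chemokine genes, 5 were called higher (21.7%, against 2.05% of all genes) and 2 lower (8.7%, against 4.61%). Besides Cxcl13, those higher were the monocyte chemokine genes Ccl12 (1.55), Ccl8 (1.18) and Ccl7 (0.79), and Ccl4 (0.39). Ccl7 was at 2162 and 780 TPM against 1380 and 411 TPM, so the groups overlapped. Those of Ccl12 overlapped too, at 31.8 and 7.03 TPM against 12.0 and 1.35 TPM. Ccl8 was low, at 3.53 and 1.42 TPM against 0.731 and 0.234 TPM. Cxcl1, a neutrophil attractant, was lower, at 5182 and 6334 TPM against 6954 and 8906 TPM (-0.46 ± 0.06, limma adjusted p = 0.00534), as was Pf4 (-0.33), and both calls were lost after scaling. With 1 library left out, 1 to 4 chemokine genes were called higher and 0 to 2 lower.

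Of 17 tested feedback regulators of cytokine signalling, 4 were called higher (23.5%, against 2.05% of all genes) and 0 lower. After scaling, 7 were called higher, against 3.19% of all genes. The 4 were Socs3 (0.55), an inhibitor of STAT3 signalling, the mRNA decay factor Zfp36 (0.49), the phosphatase gene Dusp16 (0.55) and the receptor gene Il10ra (0.44). Of 19 AP-1 and early growth factor genes, 5 were called higher (26.3%, against 2.05% of all genes) and 0 lower. They were the transcription factor genes Cebpd (0.71), Junb (0.47), Fosl2 (0.43) and Cebpb (0.35), and Ier3 (0.53). Of 21 NF-kB subunit and inhibitor genes, Tnip3 (0.64) and Bcl3 (0.42) were called higher and Ikbkg (-0.60), the regulatory subunit of the IkB kinase, lower. These shares are 9.52% higher, against 2.05% of all genes, and 4.76% lower, near the 4.61% of all genes. After scaling, 5 of these 21 were called higher and 1 lower, against 3.19% and 2.27% of all genes. With 1 library left out, 0 or 1 genes of each of these 3 lists were called in either direction.

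Of 43 tested interferon-stimulated genes, 4 were called higher under LPS (9.3% of them, against 2.05% of all genes) and 0 lower. Their median was 0.00, against -0.10 for all genes. The 4 were Slfn4 (0.75), Ifi27l2a (0.52), Irf7 (0.32), a regulator of type I interferon, and Ifitm3 (0.25). The calls of Ifi27l2a and Ifitm3 were lost after scaling, and 0 or 1 of the 43 was called with 1 library left out. Of 20 guanylate-binding and immunity-related GTPase genes, 0 were called higher and 1 lower in limma (5%, near the 4.61% of all genes). That was Gbp2, at 728 and 665 TPM against 1084 and 887 TPM (-0.49 ± 0.07, limma adjusted p = 0.009). Of 14 inflammasome genes, 3 were called lower (21.4%, against 4.61% of all genes), and 0 to 2 with 1 library left out. Casp1, the protease that matures interleukin-1 beta, was at 182 and 175 TPM against 275 and 234 TPM (-0.51 ± 0.08). The adaptor gene Pycard (-0.65, lost after scaling and in each fit that left out 1 library) and Il18bp (-0.65) were the other 2. Of 19 antigen presentation genes, limma called 0 higher and 0 lower, against 2.05% and 4.61% of all genes. In limma, 3 of the 19 had an unadjusted p under 0.05, against 23.5% of all genes tested. Their differences ran from -0.21 to 0.22.

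Genes of cholesterol synthesis were higher in the Lum label. This pathway builds cholesterol from acetyl-CoA and is switched on by the transcription factor SREBP2 when cell sterol is low. Of 24 tested members, 12 were called higher and 0 lower (15 higher after scaling), against 2.05% of all genes called higher, and all 24 lay above 0. Their median was 0.41, against -0.10 for all genes. Idi1, an isoprenoid isomerase gene, was at 50.4 and 47.8 TPM against 27.9 and 26.3 TPM (0.83 ± 0.08, limma adjusted p = 0.00165). Hsd17b7, a late-pathway reductase gene, was at 7.80 and 7.26 TPM against 2.97 and 3.56 TPM (1.00 ± 0.16, limma adjusted p = 0.0108). Sqle, the squalene epoxidase gene, was at 21.4 and 19.2 TPM against 10.7 and 12.4 TPM (0.77 ± 0.12). In each of these 3 genes the Lum-label libraries were above the other 5 libraries given LPS. The other called members were Lss (0.81), Sc5d (0.69), Fdft1 (0.68), Stard4 (0.68), Pmvk (0.64), Cyp51 (0.62), Fdps (0.59), Msmo1 (0.54) and Hmgcs1 (0.46). Srebf2 (0.29), the gene of SREBP2, named after its values were seen, did not pass. Lss was not called after scaling. Without the Lum-label or the wild-type library given LPS alone, 1 member was called, and without any other library 3 to 7. Idi1 was called in each of those 8 fits.

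Genes of cholesterol handling moved in both directions. Ch25h, which makes an oxysterol, was at 963 and 569 TPM against 556 and 286 TPM (0.89 ± 0.08, limma adjusted p = 0.000957). Apoe, the apolipoprotein E gene, was at 8033 and 8135 TPM against 5246 and 5237 TPM (0.63 ± 0.06), and the phospholipid transfer gene Pltp at 246 and 224 TPM against 135 and 132 TPM (0.81 ± 0.07). The sterol exporter gene Abcg1 was at 25.1 and 27.0 TPM against 46.1 and 46.5 TPM (-0.81 ± 0.09). In all, 5 of 16 LXR target and efflux genes were called higher (31.2%) and 2 lower (12.5%), against 2.05% and 4.61% of all genes. The other lower gene was Npc1 (-0.50), and Apoc1 (0.65) and Apoc2 were also higher. With 1 library left out, 2 or 3 were called higher and 0 or 1 lower.

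In a mixed list of NRF2-related, antioxidant and metal-handling genes, more were called lower than higher in the Lum label. NRF2 is a transcription factor that binds antioxidant response elements and switches on glutathione and redox enzymes. Of 22 tested members, 10 were called lower and 2 higher (7 and 2 after scaling), with a median of -0.35, against 4.61% of all genes called lower. Prdx1, an abundant peroxidase gene, was at 9074 and 10858 TPM against 15933 and 16733 TPM in wild type (-0.72 ± 0.07, limma adjusted p = 0.00129). Nqo1, a quinone reductase gene, was at 24.1 and 27.6 TPM against 47.4 and 47.5 TPM (-0.86 ± 0.10, limma adjusted p = 0.00304). Hmox1, the heme oxygenase gene, was at 1039 and 1214 TPM against 1724 and 1798 TPM (-0.65 ± 0.06). In these 3 genes both Lum-label libraries were below the other 5 libraries given LPS. Gstm1 (-0.98), Srxn1 (-0.66), Cat (-0.60), Gclm (-0.59), Tfrc (-0.57), Gpx4 (-0.49) and Ftl1 (-0.31) were also called lower. Nfe2l2, the gene of NRF2 itself, was at 176 and 193 TPM against 174 and 190 TPM (0.02 ± 0.07, limma adjusted p = 0.885). The 2 members called higher were the metallothionein genes Mt1 (0.75) and Mt2, which bind zinc and copper. Mt2 was at 227 and 127 TPM against 96.8 and 52.4 TPM (1.24 ± 0.09, limma adjusted p = 0.000384), and the libraries labelled Bgn-/- held 213 and 106 TPM. The calls of Prdx1, Gpx4 and Ftl1 were lost after scaling. Without the Lum-label or the wild-type library given LPS alone, 1 member was called lower, and without any other library 7 or 9.

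**Figure D3:**
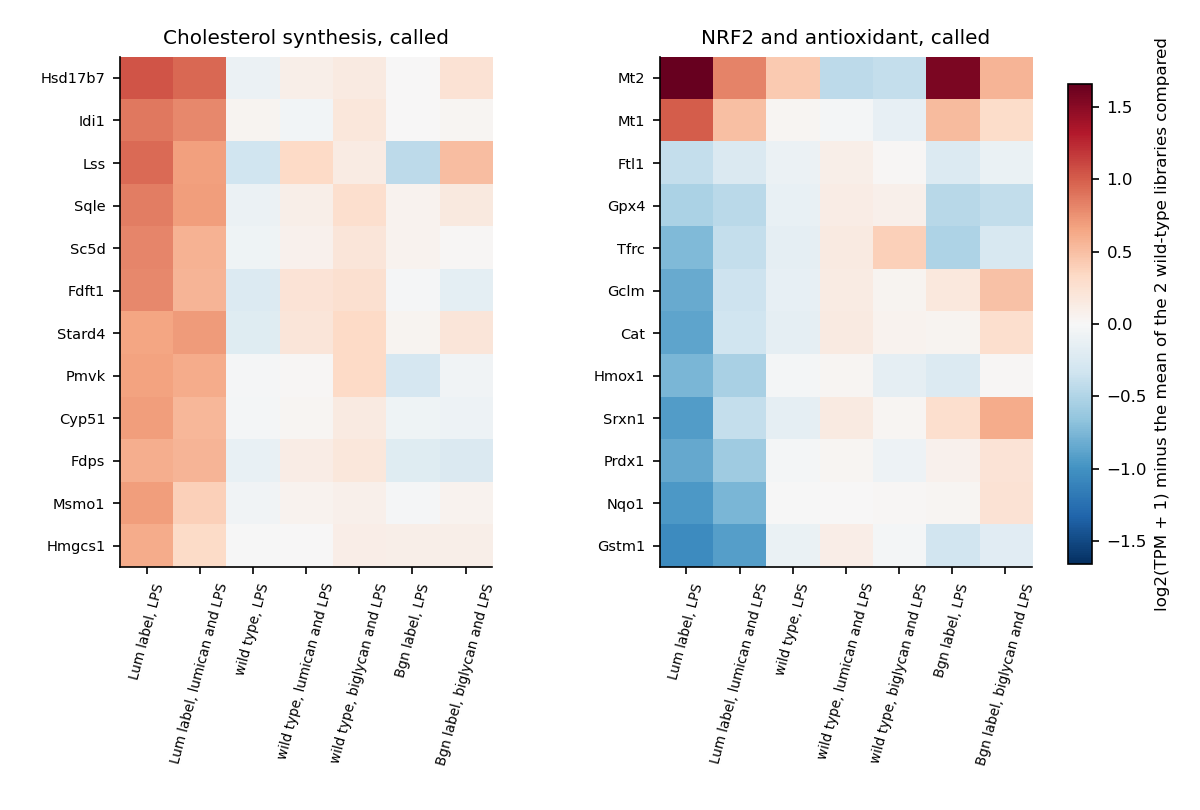
Levels of the 12 called cholesterol synthesis genes (left) and the 12 called antioxidant genes (right) in the 7 libraries given LPS, as log2(TPM + 1) minus the mean of the 2 wild-type libraries compared. The first 2 columns, labelled Lum-/-, are red for cholesterol synthesis and blue for antioxidant genes, apart from Mt1 and Mt2.

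Promoters of these 2 groups are shown because many of their members were called. All called cholesterol synthesis genes were higher, whereas antioxidant genes were called in both directions. Promoter windows, 250 bases before to 50 after the start, came from RefSeq on GRCm38.p6 and were found for 17 cholesterol synthesis and 18 antioxidant genes. Both strands were searched for a sterol regulatory element, TCACNCCAC, found in 1.24% of 32851 promoters, and for an antioxidant response element, TGACNNNGC, found in 12.4%. The sterol element was in 1 of the 17 cholesterol synthesis promoters (1 of 8 called genes) and the antioxidant element in 7 of the 18 antioxidant promoters (4 of 11 called genes). The antioxidant element was also in 4 of the 17 cholesterol synthesis promoters (2 of 8 called genes), and the sterol element in 1 of the 18 antioxidant promoters, that of Ftl1. The 250 bases before the start are given 5′ to 3′ for 1 called cholesterol gene with a match, 1 antioxidant gene called lower and 1 called higher, with the match in capitals. A match is a description of letters, not a site shown to be bound.
Hmgcs1, chr13:119690101-119690350, plus strand: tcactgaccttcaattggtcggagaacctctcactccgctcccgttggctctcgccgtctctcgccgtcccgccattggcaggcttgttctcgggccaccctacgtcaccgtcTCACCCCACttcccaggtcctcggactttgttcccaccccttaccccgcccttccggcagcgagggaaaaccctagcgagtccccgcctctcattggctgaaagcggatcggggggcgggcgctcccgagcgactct
Gclm, chr3:122245307-122245556, plus strand: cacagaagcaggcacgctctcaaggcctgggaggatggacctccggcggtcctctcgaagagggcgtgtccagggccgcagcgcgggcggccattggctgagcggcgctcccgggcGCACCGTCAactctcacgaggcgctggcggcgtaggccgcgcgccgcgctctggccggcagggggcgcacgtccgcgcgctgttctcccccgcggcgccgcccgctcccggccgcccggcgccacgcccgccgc
Mt2, chr8:94172368-94172617, plus strand: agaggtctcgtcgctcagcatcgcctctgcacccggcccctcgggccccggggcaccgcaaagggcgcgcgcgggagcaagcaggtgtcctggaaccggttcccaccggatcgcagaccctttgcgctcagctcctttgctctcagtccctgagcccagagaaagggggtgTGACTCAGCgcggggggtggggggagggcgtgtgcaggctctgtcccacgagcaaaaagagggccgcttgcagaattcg
The capitals begin 137 bases before the start in Hmgcs1, 134 in Gclm and 79 in Mt2. The antioxidant letters thus occur both in Gclm, which was lower in the Lum label, and in Mt2, which was higher. Prdx1 and Srxn1 also hold a match.

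Among the genes named here other than mast cell genes, the glutathione transferase gene Gsta3 had the largest fall, followed by Pcx. Gsta3 (chromosome 1, 21240589 to 21265661), which conjugates glutathione to reactive molecules, was at 28.0 and 36.5 TPM against 75.4 and 101 TPM in wild type (-1.42 ± 0.10, limma adjusted p = 0.000384). Gstm2, of the same superfamily, was at 8.05 and 12.0 TPM against 22.0 and 30.0 TPM (-1.30 ± 0.10). Both Lum-label libraries were below the other 5 libraries given LPS for these 2 genes. Pcx, the pyruvate carboxylase gene, was at 3.71 and 9.80 TPM against 14.7 and 21.6 TPM (-1.40 ± 0.17). H2-M2, a non-classical MHC class I gene, was at 59.5 and 90.8 TPM against 159 and 204 TPM (-1.28 ± 0.09). Under the same limits on overlap and level, the 15 genes with the largest fall also held Samd11 (-1.22), the protease inhibitor gene Cst7 (-1.21), Artn (-1.20), Panx1 (-1.19) and Galnt6 (-1.13). Gsta3, Gstm2, H2-M2, Cst7 and Panx1 were called in each fit that left out 1 library, and Pcx, Samd11, Artn and Galnt6 were not.

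Matrix and clotting genes were mixed. Of 24 tested proteoglycan and matrix genes, 8 were called higher (33.3%), Lum among them, and 2 lower (8.33%). Of all genes, 2.05% were called higher and 4.61% lower. The collagenase gene Mmp13 was at 669 and 702 TPM against 406 and 429 TPM (0.71 ± 0.07, limma adjusted p = 0.00202). Timp1, a metalloproteinase inhibitor gene, was at 69.2 and 41.9 TPM against 25.5 and 25.6 TPM (1.05 ± 0.17). Spp1 (0.72), the syndecan gene Sdc4 (0.57), Plaur (0.50) and Mmp3 (0.48) were also higher, and Dcn and the urokinase gene Plau (-0.67) lower. Of 21 coagulation and prostanoid genes, 5 were called higher (23.8%) and 3 lower (14.3%). F3, the tissue factor gene that starts clotting, was at 336 and 233 TPM against 159 and 132 TPM (0.95 ± 0.15, limma adjusted p = 0.0111). Serpinb2, a plasminogen activator inhibitor gene, was at 6662 and 5217 TPM against 3570 and 2853 TPM (0.89 ± 0.07). With 1 library left out, 1 to 5 matrix genes and 1 to 3 clotting genes were called higher, and 0 or 1 of each list lower.

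Of 24 oxidative phosphorylation genes, 1 was called lower (Ndufa4, -0.38), or 4.17% against 4.61% of all genes, and 0 after scaling. All 24 were below 0, with a median of -0.23 against -0.10 for all genes. Of 28 lysosome genes, 7 were called lower (25%, against 4.61% of all genes) and 2 higher (7.14%, against 2.05%), with 4 and 2 after scaling. The lysosomal glucosidase gene Gaa was at 38.1 and 43.4 TPM against 63.4 and 76.8 TPM (-0.76 ± 0.08, limma adjusted p = 0.00256), whereas Ctsc (0.39) and Lgmn (0.48), both protease genes, were higher. With 1 library left out, 0 to 3 lysosome genes were called lower. Cav1, the gene of caveolin, the coat protein of small membrane pits, was at 383 and 631 TPM against 752 and 1021 TPM (-0.83 ± 0.09), and Cav2 was at -0.58. Of 17 tested caveolin, clathrin and endocytic genes, Cav1 and Cav2 were called lower (11.8%) and Dab2 (0.69) higher (5.88%). Clec4n, which codes for the receptor dectin-2, was lower at 463 and 559 TPM against 758 and 824 TPM (-0.64 ± 0.07). Clec4e (-0.24, lost after scaling) was also lower, and Clec12a (0.64) was higher. These are 16.7% and 8.33% of 12 tested C-type lectin genes. Of all genes, 4.61% were called lower and 2.05% higher. The scavenger receptor genes Colec12 (-1.01) and Cd36 (-0.43) were lower, as were Marco and Timd4, and Stab1 (0.89) was higher. Of 17 tested scavenger and apoptotic cell receptor genes, 4 were thus called lower (23.5%) and 1 higher (5.88%). The Fc receptor genes Fcgr4 (0.85), Fcgr1 (0.77) and Fcgr2b (0.30) were higher (20% of their list, against 2.05% of all genes). In that list, 0 of 15 genes were called lower, and the groups of Fcgr4 and Fcgr1 overlapped. Of these, Cav1 was called in 7 of the 8 fits that left out 1 library, and the others in fewer.

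**Figure D4:**
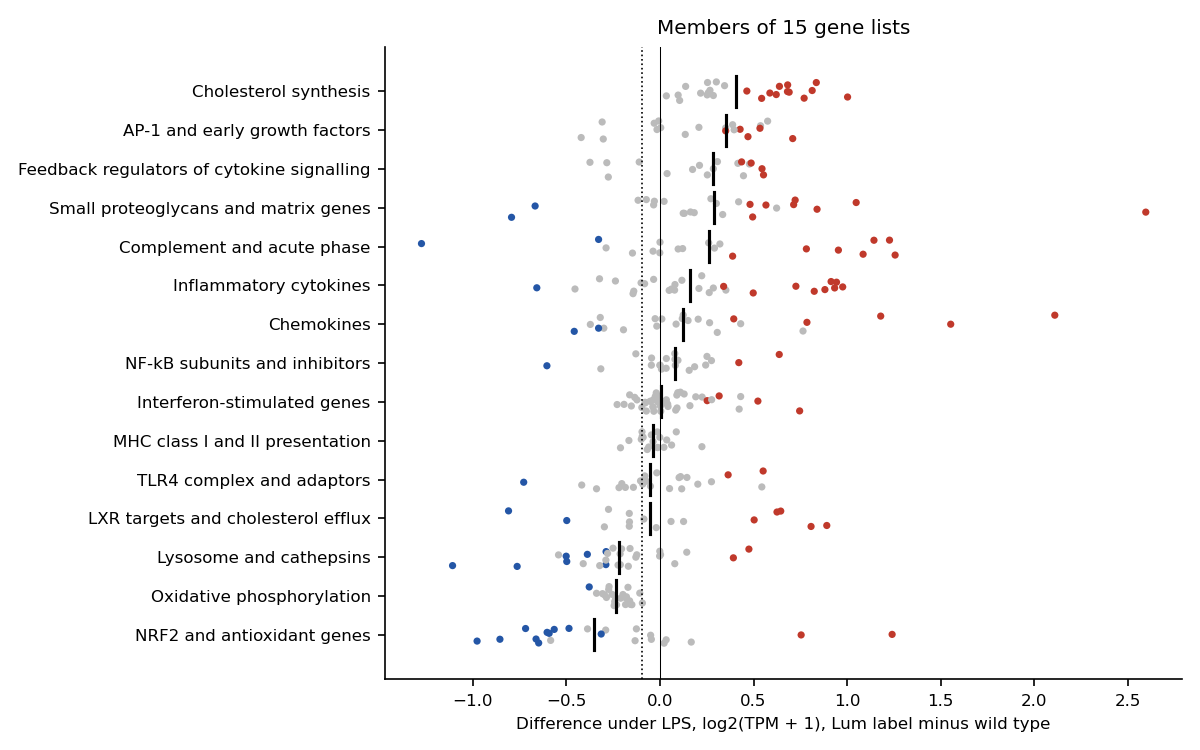
Difference under LPS of each tested member of 15 gene lists on the log2(TPM + 1) scale, with called genes in red (higher) or blue (lower), a bar at the list's median and a dotted line at the median of all genes, -0.10. All cholesterol synthesis genes lie above 0, and of the 22 antioxidant genes 17 lie below it.

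Among the marker lists of other cells in the CD11b+ fraction, that of mast cells had the largest median difference, at -2.72. Of the tested neutrophil, dendritic cell and eosinophil genes, 0 were called. Cma1, the chymase gene, was at 2.26 and 2.06 TPM in the Lum label against 20.8 and 25.9 TPM in wild type (-2.94 ± 0.15, limma adjusted p = 9.7e-05). Tpsb2, a tryptase gene, was at 3.96 and 1.94 TPM against 25.9 and 29.5 TPM (-2.91 ± 0.22). The tryptase gene Tpsab1 (-3.24), the chymase gene Mcpt4 (-2.54) and the carboxypeptidase gene Cpa3 (-1.47) were lower as well. Of 6 tested mast cell genes, 5 were called lower, and 4 or 5 with 1 library left out. The 5 genes called lower in the main fit are 83.3% of those tested, against 4.61% of all genes. The list's summed level was 168 and 174 TPM in the Lum label against 210 and 210 TPM in wild type. None of its 12 genes was at 0 in all 4 libraries. Most of that sum was Hdc, the histidine decarboxylase gene, named after its values were seen, at 156 and 166 TPM against 128 and 116 TPM (0.40 ± 0.12, limma adjusted p = 0.0883). In bulk RNA, fewer mast cells and less of these RNAs per cell cannot be told apart. The libraries labelled Bgn-/- given LPS held the 4 protease genes Cma1, Mcpt4, Tpsab1 and Tpsb2 at 0.161 to 1.68 TPM.

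The macrophage list summed to 18491 and 17340 TPM in the Lum label and 16958 and 17114 TPM in wild type. Of its 12 members, 5 were called higher (the C1q genes, Cd14 and Fcgr1) and 1 lower (Cd68, -0.43, lost after scaling). These are 41.7% and 8.33%, against 2.05% and 4.61% of all genes. Adgre1, the gene of F4/80 on mouse macrophages, was at 563 and 554 TPM against 632 and 584 TPM (-0.12 ± 0.07), so the labelled cell type was present in both genotypes. B cell genes summed to 915 and 837 TPM against 984 and 1095 TPM. Of 12 tested, 1 was called lower (Cd79b, -0.54), or 8.33% against 4.61% of all genes, and 0 higher. The Cd79b call was lost after scaling and in each fit that left out 1 library. Of 21 called immunoglobulin gene segments, 17 were lower and 4 higher, and the number of segments tested is not given here. Neutrophil genes summed to 680 and 665 TPM against 665 and 669 TPM, with Elane, Ngp and Stfa2 at 0 in all 4 libraries. Summed T and NK cell genes (8.81 to 18.0 TPM), eosinophil genes (1.85 to 2.83 TPM) and mesothelial and fibroblast genes (15.4 to 28.1 TPM) were low in all 4 libraries, and the last sum includes Lum. The part of these cells in the differences above was not tested.

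Genes were also grouped by how they respond to LPS. The groups were set, after the data were seen, by their change in a pair outside the comparison, the LPS and untreated libraries labelled Bgn-/-. Of 327 genes that rose at least 4-fold there, 54 were called higher in the Lum label (16.5%, against 2.05% of all genes) and 6 lower (1.83%). Of 848 genes that fell at least 4-fold, 10 were called higher (1.18%) and 78 lower (9.2%, against 4.61% of all genes). The medians were 0.05 and -0.19, against -0.10 for all genes. After scaling, 66 of the 327 were called higher and 44 of the 848 lower. Relative to the libraries labelled Bgn-/- given LPS, 184 of the 219 genes called higher lay above both, and 391 of the 493 called lower lay below both. These libraries lay beyond both wild-type libraries on the Lum-label side for 51 and 158 of these genes. The genes were chosen for their difference between the Lum label and wild type. The shares over all tested genes are not given, so these counts have no background to be read against.

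The genotype difference under LPS was set against the same difference under CpG, a DNA ligand of TLR9, with the same proteins. Of the 712 genes called under LPS, 659 (92.6%) had the same sign under CpG, against 66.5% of all genes. For the test of the LPS difference minus the CpG difference, limma called 0 of 10689 genes (0%), while 904 genes had an unadjusted p under 0.05 and the lowest adjusted p was 0.112. Hal was at 447 and 359 TPM in the Lum label under CpG against 27.1 and 28.2 TPM in wild type, a difference of 3.81 beside 3.48 under LPS. The CpG differences of C1qa, Cxcl13 and Cma1 were 1.23, 1.93 and -2.93, beside 1.23, 2.11 and -2.94 under LPS. Cholesterol synthesis genes had a median of 0.45 under CpG and antioxidant genes one of -0.20, beside 0.41 and -0.35 under LPS. Other lists differed more between stimuli, with interferon-stimulated genes at a median of 0.40 under CpG and 0.00 under LPS, and inflammatory cytokine genes at -0.06 and 0.16. These differences between list medians were not tested.

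The 8 genes ranked first by that test are described here without a call. The ranking was limited to genes with a standard symbol and a mean of at least 10 TPM in the higher group under LPS. Ednrb, the endothelin B receptor gene, was at 41.8 and 71.8 TPM in the Lum label under LPS against 94.9 and 131 TPM in wild type. Under CpG, it was at 212 and 218 TPM against 220 and 223 TPM, and the difference between stimuli was -0.97 ± 0.13 (limma adjusted p = 0.112). Fabp7, a fatty acid binding protein gene, was at 237 and 235 TPM under LPS against 137 and 133 TPM, and under CpG at 72.0 and 65.4 TPM against 73.2 and 65.4 TPM. Mmp13 (0.73), Ctla2a (0.97) and Mt2 (0.93) also had a higher genotype difference under LPS. Nos2 had the opposite order, at 79.0 and 86.1 TPM in the Lum label under CpG against 31.3 and 35.9 TPM in wild type, and -0.99 ± 0.13 for LPS minus CpG (limma adjusted p = 0.112). Irf7 (-0.69) and the nucleic acid sensor gene Zbp1 (-0.64) lay on the same side as Nos2.

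**Figure D5:**
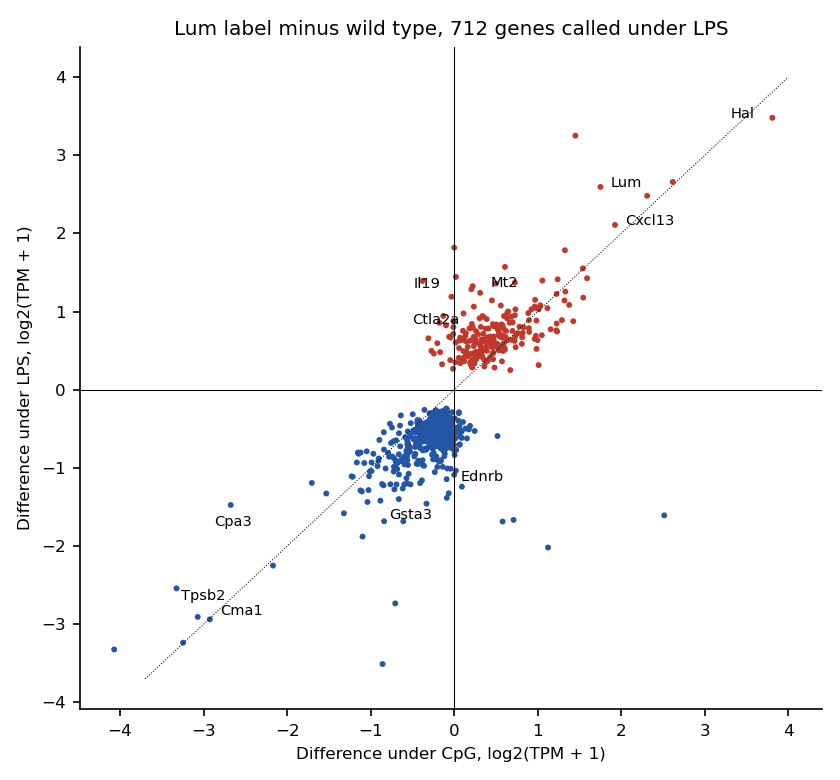
Difference between the libraries labelled Lum-/- and wild type under CpG (x axis) and under LPS (y axis), on the log2(TPM + 1) scale, for the 712 genes called under LPS. Of these, 659 share a sign, with Hal, Lum and Cxcl13 high under both stimuli, and Ednrb near 0 under CpG.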

How the data were processed

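RNA sequencing libraries were made with a stranded kit, per the labels. The submitters' processing notes name kallisto 0.44.0, bcl2fastq 1.8.4 and GRCm38, without roles. The deposited table holds TPM per transcript, normalized by the authors so that each library sums to 1000000. Among 89562 transcripts, 82788 carry a gene name in the table, and 5424 more took one from GENCODE mouse release 21 by transcript ID. The remaining 1350 were left out, and in the highest library they held 7548.3 TPM. Sums were made over 23545 gene names. TPM carries no read totals, so the depth behind each value is not known and no counting interval is given.

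The test was limma 3.58.1 (R 4.3.3), on log2(TPM + 1) of genes whose mean over the 4 LPS libraries reached 1 TPM, by lmFit and trended eBayes, two-sided, at a Benjamini-Hochberg adjusted p under 0.05. The fit held 8 libraries, the 4 given LPS and their 4 CpG counterparts, with intercept, genotype and protein terms for each stimulus and 2 residual degrees of freedom. The fitted LPS difference equals the mean of the 2 pair differences. The fit was also run on simulated libraries with known differences, and the outcome is not given here.

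The members and the 40 gene lists (31 pathway and 9 marker lists) were chosen with earlier results of these data known. Named genes are those called, with the same sign in both pairs, no overlap and at least 10 TPM in the higher group, 15 each way. From each list, called members, the first 3 and the 3 with the largest difference are eligible, as are 16 LPS-pathway and target genes, up to 8 genes of the stimulus test and genes within 2 Mb of Lum. Some genes that the rule names are not reported here. Tables and plots used Python 3.11.15 with numpy 2.4.6, pandas 2.3.3 and matplotlib 3.10.9. Alternatives were pseudocounts of 0.1 and 5, other filters, scalings and library sets, robust eBayes, no protein term and leaving out each library.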

Additional observations from a re-analysis of the deposited data

How the results depend on the processing

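No gene eligible to be named that was called changed the sign of its difference under any alternative run, which was largely fixed in advance. Called genes had the same sign in both pairs, so a single pair cannot reverse them. Several alternatives, such as robust eBayes or leaving out a CpG library, do not change the LPS difference. The lack of reversals is therefore not a check of the results. After scaling, the balance of calls turned from 219 higher and 493 lower to 341 and 243. The 712 calls under LPS were 4 with no filter on low values (21697 genes tested), 378 after quantile normalization, 402 with the most abundant transcript per gene and 148 without the protein term. They were 194 with the 4 LPS libraries only, 433 with all 7 LPS libraries, 1075 with 14 stimulated libraries and 149 with all 21. Leaving out 1 library at a time gave 102 to 252 calls, with 102 without the wild-type library given LPS alone. The cause was not tested. Pseudocounts, a minimum of 5 TPM, scaling (584), robust eBayes and the added alternative, chosen after the data were seen, of the deposited gene names only (925) stayed within 1.5 times of 712. The test of LPS minus CpG, at 0 calls, gave 5 with a minimum of 5 TPM, 11 with robust eBayes, 4 with deposited names only and 0 to 14 with 1 library left out. Of 163 called genes eligible to be named, 27 were called in all 8 fits that left out 1 library, 81 in some and 55 in none. The main analysis is paired on protein, and each group has 1 library, so replicate numbers add no pairing. TPM gives no depth, so precision at low levels is not known.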
